A study of Mus musculus with 6 samples.

Results

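The subject is a set of imprinted genes led by Peg10 and Sgce, read gene by gene in 6 cultured mouse mammary cell lines. The rule names 10 genes: Peg10, Sgce, H19, Igf2, Peg3, Mest, Grb10, Cdkn1c, Plagl1 and Dlk1. They were selected on their counts in this same comparison, so their levels are given as a description and without a test. Values were found for 8 of the 10, out of 23449 genes measured. Igf2 and Dlk1 are not analysed here. After the filter on low counts, 4 of the 8 entered the fit over 13698 genes, namely Peg10, Sgce, Peg3 and Mest.

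The lines are female, of strain FVB/N, and were grown with doxycycline at 10 ug/mL in serum-containing medium with growth factors. Of the 6, 3 carry the genotype label EIC/WT (EIC 1, 2 and 3) and 3 the label 16IC/WT (16IC 1, 2 and 3). By background on the study, 16IC lines express the HER2 splice form without exon 16 (HER2∆16) and EIC lines the full-length ErbB2 receptor, switched on by doxycycline in both. The labels name neither the promoter of the transgene nor the animal behind each line, nor whether a line is 1 clone. Nothing says that the lines came from separate animals, so p-values refer to the spread of these 6 lines, which may be technical. All 6 lines received doxycycline. Genotype and origin of a line cannot be told apart.

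Imprinted genes are expressed from the copy inherited from 1 parent, because DNA methylation laid down in the egg or sperm marks the copies differently. Many of them lie in clusters under a shared control region, and many act on fetal growth, placenta and stem or progenitor cells. After birth a number of them are silenced in most tissues and can reappear in tumours. Of the genes analysed, Peg10, Sgce, Peg3, Mest and Plagl1 are expressed from the paternal copy, H19 and Cdkn1c from the maternal copy, and Grb10 from the maternal copy in most tissues. The counts do not separate the parental copies, so nothing here measures imprinting itself.

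Total counts ranged from 15621563 to 17468498 per line. EIC 2 and 16IC 3 stood apart from their groups. The Spearman correlation of counts over the tested genes was 0.874 between 16IC 3 and 16IC 1 and 0.880 between 16IC 3 and 16IC 2, against 0.841 to 0.885 between lines of different groups. EIC 2, whose title has NT in place of a number, reached 0.925 with EIC 1 and 0.917 with EIC 3. The luminal keratin genes Krt8 and Krt18 were at 563 CPM or more in every line, while the epithelial adhesion gene Epcam was at 0.456 to 3.79 CPM in EIC against 51.1 to 1345 CPM in 16IC. The luminal keratin gene Krt19 went the other way, at 7.70 to 198 CPM in EIC against 0 to 0.649 CPM in 16IC. Of 13 luminal markers tested, 5 lay higher in every 16IC line than in any EIC line, 1 lay lower and 7 overlapped. CPM stands for counts scaled to library size with TMM factors (edgeR's cpm). All 14 luminal markers were measured, with a summed level of 3090 to 3535 CPM in EIC against 2389 to 9812 CPM in 16IC. For 9 of 13 mesenchymal and fibroblast markers the sum was 4198 to 8219 CPM in EIC, whereas 16IC 1 had 151, 16IC 2 had 230 and 16IC 3 had 3703 CPM. For 8 of 8 basal markers it was 0.570 to 22.0 CPM in EIC against 1.77 to 48.4 CPM in 16IC. Most of the largest sums came from Oxtr in 16IC 3 (46.4 CPM) and from Trp63 and Oxtr in EIC 2 (11.5 and 10.3 CPM). Krt14, the 1 basal marker tested, was at 0.0570 to 0.120 CPM in EIC against 1.10 to 13.1 CPM in 16IC. The other basal markers overlapped between the groups, with Krt5 at or below 0.0612 CPM in every line. Leukocyte, endothelial and adipocyte markers (4 of 8, 5 of 6 and 2 of 5 measured) summed to at most 47.6, 4.16 and 42.2 CPM in any line. Of those, the pan-leukocyte gene Ptprc was at most 0.306 CPM and the endothelial gene Pecam1 at most 0.249 CPM. Their part in the differences below was not tested. In bulk RNA, fewer expressing cells and less RNA per cell cannot be told apart.

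The EIC lines expressed Sgce and Peg10, and 16IC 1 and 16IC 2 were close to silent for both. Sgce was expressed at a similar level in the 3 EIC lines, whereas most of the Peg10 counts came from EIC 2. Peg3 was also lower in most 16IC lines, but EIC 2 and 16IC 3 crossed over. Grb10 was expressed in EIC 2 and at or near 0 in the other 5 lines. H19, Mest, Cdkn1c and Plagl1 stayed at or below 3.11 CPM everywhere.

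**Figure D1:**
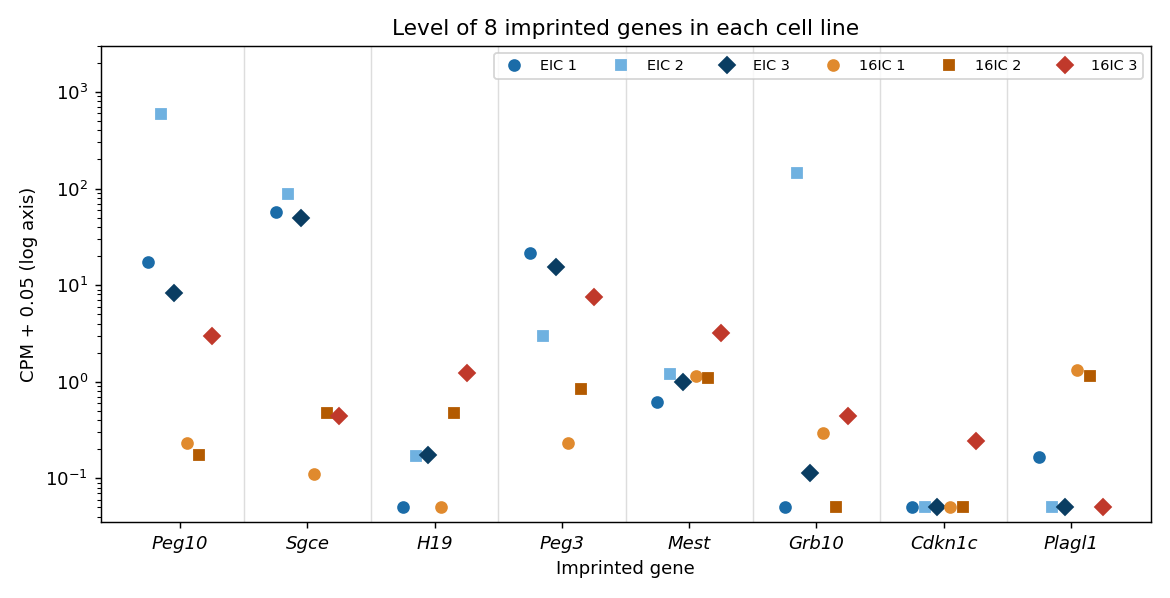
Level of each of the 8 genes (x axis) as CPM plus 0.05 on a log axis, with 1 point per line, blue for EIC and orange to red for 16IC. For Sgce the EIC lines lie between 49.1 and 88.2 CPM and the 16IC lines at or below 0.428 CPM, and for Grb10 EIC 2 at 144 CPM stands above all other lines.

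Sgce encodes epsilon-sarcoglycan, a membrane glycoprotein of the sarcoglycan family that is also found outside muscle. It is ENSMUSG00000004631, on the minus strand of chromosome 6, bases 4674350 to 4747207 on mm10. Its counts were 1000, 1466 and 790 in EIC 1, 2 and 3, and 1, 7 and 6 in 16IC 1, 2 and 3. In CPM these were 57.0, 88.2 and 49.1 against 0.0602, 0.428 and 0.389. Every EIC line lay above every 16IC line by more than the spread within either group. The means were 64.8 ± 20.6 CPM in EIC against 0.293 ± 0.202 CPM in 16IC (SD, n = 3), a ratio of 221. With each line left out in turn the ratio ran from 158 to 288, so no single line carried it. The fitted log2 fold change, 16IC over EIC, was -7.76 (SE 0.66). Of the 9 mesenchymal markers measured, Vim and Twist1 were also lower in every 16IC line than in any EIC line. Col1a1 was higher in every 16IC line (1.20 ± 0.745 CPM in EIC, 4.30 ± 1.02 CPM in 16IC, SD, n = 3), and the rest overlapped. The part of these markers in the Sgce difference was not tested.

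Peg10 derives from a retrotransposon and encodes Gag- and Pol-like proteins that are needed for placenta formation. It is ENSMUSG00000092035, on the plus strand of chromosome 6, bases 4747306 to 4760517. Its counts were 304, 9902 and 133 in EIC 1, 2 and 3, and 3, 2 and 45 in 16IC 1, 2 and 3. This corresponds to 17.3, 596 and 8.27 CPM against 0.181, 0.122 and 2.92 CPM. The groups did not overlap, yet the nearest lines of the groups, EIC 3 and 16IC 3, were much closer to each other than for Sgce. Mean levels were 207 ± 337 CPM in EIC against 1.07 ± 1.60 CPM in 16IC (SD, n = 3), a ratio of 193 in which the SD of EIC exceeds its mean. Without EIC 2 the ratio was 11.9, and without 16IC 3 it was 1366. The fitted log2 fold change was -7.60 (SE 2.30), which became -3.58 without EIC 2 and -10.35 without 16IC 3.

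Peg10 and Sgce lie head to head, with 98 bases between their annotated bodies, and are the classic members of 1 paternally expressed domain. Their levels did not keep a fixed ratio across the lines. Per kilobase of annotated length, Sgce was at 5.37 and 4.63 CPM in EIC 1 and EIC 3, above Peg10 at 2.60 and 1.24 CPM. In EIC 2 the order was the other way round, with Peg10 at 89.3 and Sgce at 8.31 CPM per kilobase, a ratio of 10.8. Peg10 took 23.3% of the counts of the pair in EIC 1 (exact 95% Clopper-Pearson interval 21.0 to 25.7), 14.4% in EIC 3 (12.2 to 16.8) and 87.1% in EIC 2 (86.5 to 87.7). In 16IC 3 it took 88.2% of 51 counts (76.1 to 95.6). Hence 16IC 3 resembled EIC 2 in the make-up of the pair and the other 16IC lines in its low Sgce. With 4 and 9 counts, 16IC 1 and 16IC 2 left the share poorly defined, at 19.4 to 99.4% and 2.81 to 60%. These intervals cover counting error alone, since reads without molecular identifiers are not independent molecules.

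**Figure D2:**
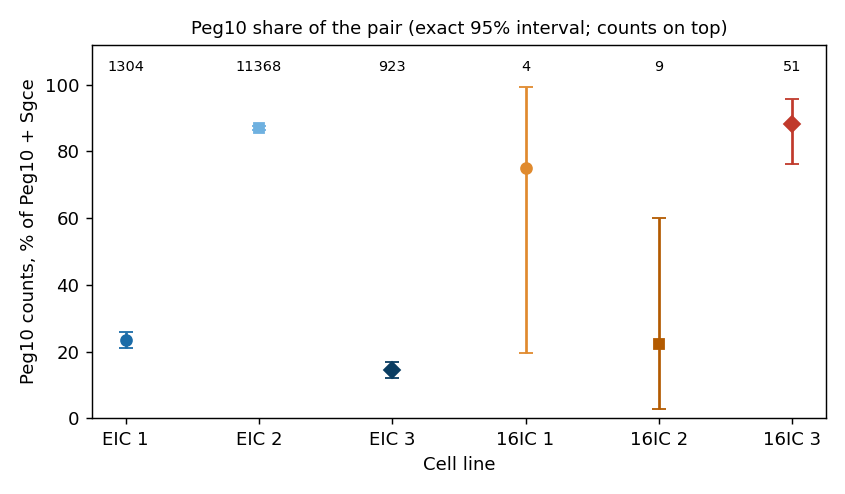
Share of Peg10 in the summed counts of Peg10 and Sgce (y axis, percent) in each line (x axis), with exact 95% intervals and the summed count above each point. EIC 2 and 16IC 3 lie at 87.1 and 88.2%, far above EIC 1 and EIC 3 at 23.3 and 14.4%.

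Among the neighbouring genes on chromosome 6, edgeR called 0 of the 3 tested, with 0 at an unadjusted p below 0.05. Limma-voom called 0, and so did DESeq2, which gave no adjusted p for the predicted model Gm44250. Over all 13698 tested genes edgeR, limma-voom and DESeq2 called 335, 287 and 2098, and 22.7% had an unadjusted edgeR p below 0.05. Casd1, a sialic acid acetyltransferase gene whose body ends 31.0 kb from that of Sgce, had 34.0, 47.2 and 35.9 CPM in EIC against 41.1, 43.9 and 42.3 CPM in 16IC. With a log2 fold change of 0.12 (SE 0.19) it was far from the threshold in edgeR's quasi-likelihood fit (adjusted p = 0.759, and 0.404 to 0.962 over the alternatives). On the Peg10 side the next tested gene, the predicted model Gm44250, starts 456 kb away, just before Pon3. It had 41.0, 40.8 and 31.8 CPM in EIC against 5.90, 10.9 and 121 CPM in 16IC (edgeR adjusted p = 0.903, and 0.0204 without 16IC 3). Pon3, a paraoxonase gene, had 25.8, 36.2 and 22.0 CPM in EIC against 5.48, 10.6 and 68.7 CPM in 16IC, so that the groups overlapped and 16IC 3 stood far above 16IC 1 and 16IC 2 (edgeR adjusted p = 0.995). Ppp1r9a, which is imprinted with Peg10 in some tissues, was at most 0.808 CPM in any line. The collagen gene Col1a2 had 64 counts in EIC 2 and at most 2 in each other line. EIC 2 was the highest line for Col1a2, Casd1, Sgce and Peg10, although for Casd1 the excess over the next line was small. Other genes here went otherwise. Ppp1r9a had 6, 0 and 13 counts in EIC 1, 2 and 3, and Gm44250 and Pon3 were highest in 16IC 3. Over all tested genes EIC 2 was the highest of its group for 39.6%.

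**Figure D3:**
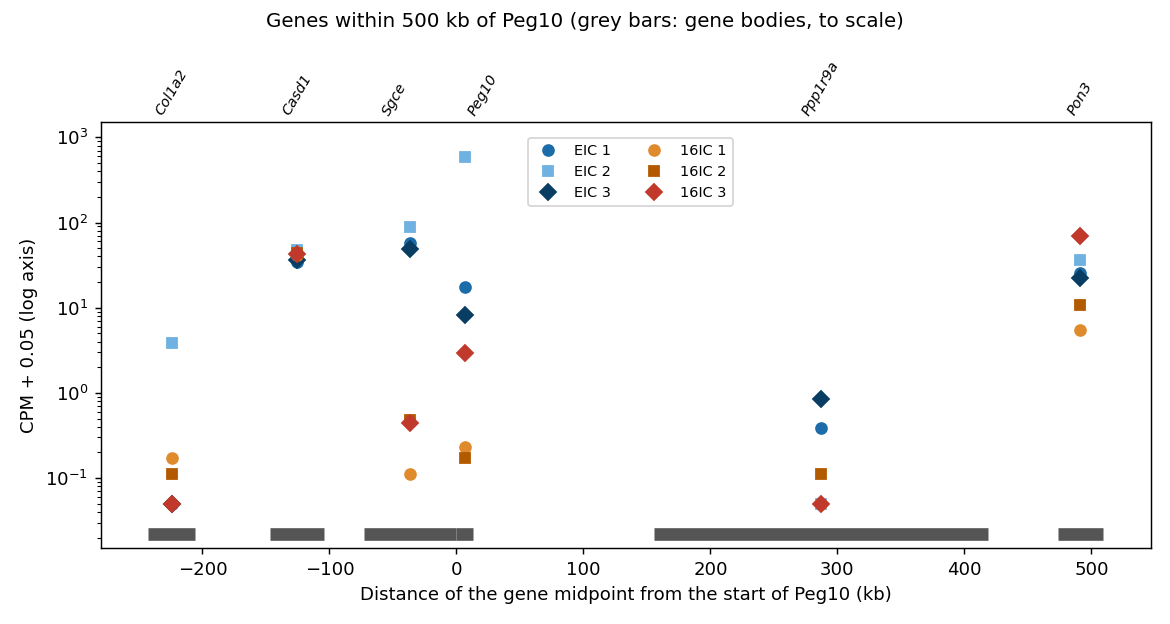
Level (CPM plus 0.05, log axis) in each line for named genes within 500 kb of Peg10, placed at the distance of the gene midpoint from the start of Peg10 in kb, with gene bodies drawn to scale as grey bars and predicted models and pseudogenes left out. Casd1 is at 34.0 to 47.2 CPM in all 6 lines, while Sgce and Peg10 beside it separate the EIC from the 16IC lines.

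Peg3 encodes a large zinc-finger protein of the paternally expressed class (ENSMUSG00000002265, minus strand of chromosome 7, bases 6703892 to 6730431). Its counts were 380, 49 and 248 in EIC 1, 2 and 3, and 3, 13 and 114 in 16IC 1, 2 and 3. The levels were 21.7, 2.95 and 15.4 CPM against 0.181, 0.795 and 7.39 CPM. The groups overlapped, since 16IC 3 lay above EIC 2, the line with by far the most Peg10. Mean levels were 13.3 ± 9.53 CPM in EIC against 2.79 ± 4.0 CPM in 16IC (SD, n = 3), a ratio of 4.78 that rose to 27.3 without 16IC 3. The fitted log2 fold change was -2.26 (SE 1.35), and -4.76 without 16IC 3. Zfp28 and Zfp954, the nearest tested genes on either side, are zinc-finger genes as well, with log2 fold changes of 0.17 (SE 0.31) and -0.12 (SE 0.30) (edgeR adjusted p = 0.784 and 0.848).

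Grb10 encodes an adaptor protein that restrains signalling from the insulin and IGF1 receptors (ENSMUSG00000020176, minus strand of chromosome 11, bases 11930508 to 12038683). It had 2395 counts, or 144 CPM, in EIC 2. The other EIC lines had 0 and 1 counts and the 16IC lines 4, 0 and 6, so that a group mean describes none of them. A count of 0 allows up to 0.171 CPM in EIC 1 and 0.184 CPM in 16IC 2. Against the highest other line, with 0.5 CPM added to both, EIC 2 was 163 times higher for Grb10, and 1 of 23449 genes, Grb10 itself, reached that value. The same excess was 33.4 for Peg10, reached by 18 genes, and at least 8 for 101 genes, or 0.431% of the table. Both were looked at after the values were seen. The neighbouring genes Fignl1 and Cobl, 122 and 198 kb away, had 27.4 and 4.99 CPM in EIC 2, within or below the range of the other lines.

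Of the 8 genes, 4 had a start in RefSeq's promoter table for GRCm38.p6. For the pair of Grb10 starts, the 250 bases before the start are printed here because Grb10 stood out most in a single line and is known for parent-specific use of its promoters. Neither window overlaps an annotated exon in GENCODE M21. Methylation was not measured. Each is written 5′ to 3′ on the minus strand, with every CG dinucleotide, the site of DNA methylation in mammals, in capitals. The windows are chr11:12037421-12037670 (upstream) and chr11:12027972-12028221 (downstream) on GRCm38, both inside the deposited span of Grb10.
Grb10 upstream start: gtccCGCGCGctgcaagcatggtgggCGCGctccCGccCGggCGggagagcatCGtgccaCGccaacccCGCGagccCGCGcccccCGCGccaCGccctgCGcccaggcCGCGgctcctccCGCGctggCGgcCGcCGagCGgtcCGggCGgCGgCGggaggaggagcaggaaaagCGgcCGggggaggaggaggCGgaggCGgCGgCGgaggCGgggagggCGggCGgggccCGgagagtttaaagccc
Grb10 downstream start: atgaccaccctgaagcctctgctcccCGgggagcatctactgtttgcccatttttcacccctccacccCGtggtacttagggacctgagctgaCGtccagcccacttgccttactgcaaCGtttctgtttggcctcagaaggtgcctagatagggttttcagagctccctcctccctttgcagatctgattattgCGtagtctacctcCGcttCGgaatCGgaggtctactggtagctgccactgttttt

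The upstream Grb10 window holds 40 CG and is 81.2% G or C, and 98.7% of the 32851 windows of this length in the table hold fewer CG. The downstream Grb10 window holds 8 CG, as does the window of Peg3, with 57.0% of windows holding fewer. At least 1 CG is found in 92.1% of all windows, and the median is 6. The Plagl1 window holds 19 CG, and the Mest windows hold 7, 14 and 14. The gene counts do not say which Grb10 start EIC 2 used.

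The remaining genes were near the limit of detection. Mest, a paternally expressed gene for a hydrolase-like protein (ENSMUSG00000051855, chromosome 6, bases 30723547 to 30748465), had 0.570, 1.14 and 0.933 CPM in EIC against 1.08, 1.04 and 3.11 CPM in 16IC. Its groups overlapped, and its fitted log2 fold change of 0.98 (SE 0.60) became 0.27 without 16IC 3. Copg2 overlaps Mest on the other strand at 49.1 to 86.7 CPM, and as strandedness is not stated, their reads may not be separated. Plagl1, a zinc-finger regulator of other imprinted genes (ENSMUSG00000019817, chromosome 10, bases 13060504 to 13131694), had 21 and 18 counts in 16IC 1 and 16IC 2 and 0 in 16IC 3. Against 2 counts over the EIC lines, all in EIC 1, the 16IC sum was 20.3 times higher. This ratio of pooled counts leaves out the spread between lines. The groups overlapped, and 16IC 3 was again apart from the other 16IC lines.

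H19, a maternally expressed long noncoding RNA that hosts miR-675 and shares enhancers with Igf2 (ENSMUSG00000000031, chromosome 7, bases 142575529 to 142578143), had 0, 2 and 2 counts in EIC and 0, 7 and 18 in 16IC. The ratio of its means, 6.52 in favour of 16IC, was 2.63 without 16IC 3. Cdkn1c encodes the cyclin-dependent kinase inhibitor p57 (ENSMUSG00000037664, chromosome 7, bases 143458339 to 143461050). It had 3 counts in 16IC 3 and 0 in the other 5 lines, where up to 0.187 CPM would go unseen, and no fold is given. Other inhibitors of the same kinases were well expressed, with Cdkn1a (p21) at 243 ± 15.7 CPM in EIC against 173 ± 83.4 CPM in 16IC, and Cdkn1b (p27) at 117 ± 8.25 and 141 ± 27.2 CPM (SD, n = 3).

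Seen line by line, the summed level of the 8 genes was 96.7, 832 and 73.9 CPM in EIC 1, 2 and 3 and 3.01, 3.92 and 15.6 CPM in 16IC 1, 2 and 3. Per kilobase the leading gene was Sgce in EIC 1 and EIC 3, Peg10 in EIC 2, and Mest in each 16IC line, at 0.264 to 0.789 CPM per kilobase. In EIC 2, 96.1% of tested genes lay below Peg10 on this scale and 73.5% below Grb10. Sgce ranked above 43.5 to 57.2% of tested genes in the EIC lines and above 1.06 to 1.73% in the 16IC lines. Within its group, 16IC 3 was the highest line for 6 of the 8 genes (Cdkn1c, Grb10, H19, Mest, Peg10 and Peg3) and the lowest for Plagl1. Over all tested genes it was the highest of its group for 44.3% and the lowest for 44.7%. EIC 2 was the highest of its group for Grb10, Mest, Peg10 and Sgce, against 39.6% of tested genes, and the lowest for Peg3.

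Of the 13698 genes tested, edgeR called 335 at a Benjamini-Hochberg adjusted p under 0.05, or 2.45%, with 1.25% higher and 1.20% lower in 16IC. Of the same genes limma-voom called 287 and DESeq2 called 2098. Without 16IC 3, edgeR called 1913 of 14262, so calls by DESeq2 or without that line were common. Among the 4 tested members 1, Sgce, was under that threshold, from which nothing is read since the genes were selected on this comparison. That call was lost without EIC 1, EIC 3 or 16IC 2 and with 16IC 1 and 16IC 2 averaged, while 2 members were under the threshold without 16IC 3. Every 16IC line lay below every EIC line for 2 of the 8 genes, Sgce and Peg10, and for 14.2% of tested genes. None of the 8 had every 16IC line above every EIC line, which held for 17.2% of tested genes.

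Among other imprinted genes 1 passed the test. Of 54 listed, 41 were measured and 27 tested, and edgeR called 1, the maternally expressed Slc22a18. That is 3.70%, close to the 2.45% of all tested genes, and nothing particular to imprinted genes is read from it. Their median log2 fold change was 0.07, against 0.00 over all tested genes, with 17 positive and 10 negative. Slc22a18, an organic cation transporter gene, lies 12.7 kb from Cdkn1c in the same imprinted domain. It had 0.684, 1.86 and 0.933 CPM in EIC against 13.6, 12.1 and 8.17 CPM in 16IC (log2 fold change 3.27, SE 0.50, edgeR adjusted p = 0.0407). Limma-voom and DESeq2 called it too. Leaving out EIC 1, EIC 3, 16IC 1 or 16IC 2, or averaging 16IC 1 with 16IC 2, ended the edgeR call. Over the alternatives the smallest adjusted p was 2.79e-08 (DESeq2) and the largest 0.171 (without 16IC 2). Phlda2, a placental growth regulator next to it, had 9.40 and 18.2 CPM in 16IC 1 and 16IC 2 but 0.259 CPM in 16IC 3, within the EIC range of 0.241 to 1.37 CPM. The antisense control transcript of that domain, Kcnq1ot1, had 2.53 ± 0.664 CPM in EIC against 4.78 ± 2.91 CPM in 16IC (SD, n = 3, edgeR adjusted p = 0.357).

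Among the 11 tested paternally expressed genes 3 (27.3%) had an edgeR p below 0.05 before adjustment, close to the 22.7% of all tested genes. Of the 11, edgeR and limma-voom called 0, and DESeq2 called 2, against 2098 of all 13698 tested genes. Sfmbt2, a Polycomb-related gene, had 29.5, 10.6 and 39.9 CPM in EIC against 3.13, 2.45 and 5.25 CPM in 16IC, groups that did not overlap (log2 fold change -2.88, SE 0.58, edgeR adjusted p = 0.0612). Snrpn, which encodes a splicing protein at the Prader-Willi domain, had 3.30 ± 1.09 CPM in EIC against 11.1 ± 2.57 CPM in 16IC (SD, n = 3, edgeR adjusted p = 0.0748). DESeq2 called both, and so did edgeR without 16IC 3, and Sfmbt2 also without EIC 2. The paternally expressed genes differed among themselves in direction, with 7 of the 11 at a positive log2 fold change. Rtl1, another gene derived from a retrotransposon and imprinted in the Dlk1 domain, did not pass the filter on low counts and was not tested. It had 76, 4 and 135 counts in EIC and 0 in all 3 16IC lines, at least 69.0-fold lower taking 3 counts over the 16IC lines as the floor. The bound was 37.8 without EIC 3, 45.3 to 47.0 without a 16IC line, and 101 without EIC 2, whose level of 0.241 CPM was close to that of 3 counts. Unlike Peg10, Rtl1 was lowest in EIC 2 among the EIC lines.

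**Figure D4:**
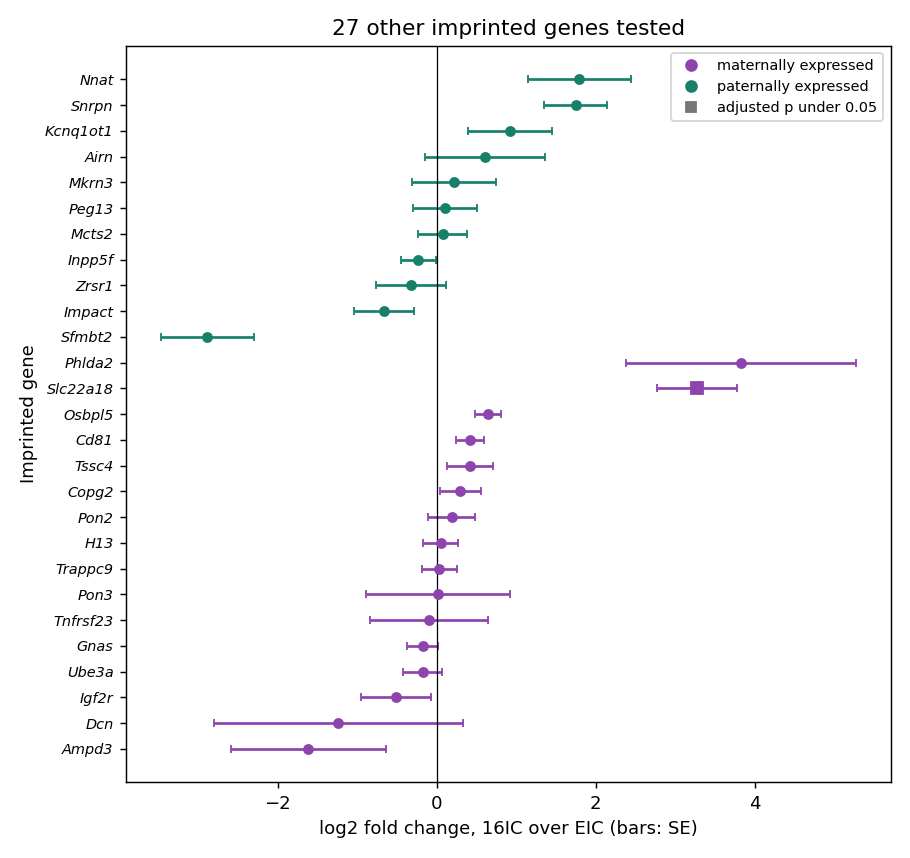
Fitted log2 fold change, 16IC over EIC, with its SE for the 27 tested imprinted genes outside the set, green for paternally and purple for maternally expressed genes and a square where edgeR's adjusted p was under 0.05. Slc22a18 at 3.27 is the 1 square, and the other genes lie on both sides of 0.

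The surroundings of the 8 genes were examined over 500 kb on either side. Of 55 tested neighbours edgeR called 1, again Slc22a18, or 1.82% against 2.45% of all tested genes, and 15 (27.3%) had an edgeR p below 0.05 before adjustment, against 22.7% of all tested genes. Their median log2 fold change was 0.29, with 39 positive and 16 negative. Within this span every 16IC line lay above every EIC line for 14 neighbours (25.5%, against 17.2% of all tested genes) and below for 3 (5.45%, against 14.2%). Neighbours of 1 member share a region, and nothing particular to them is read from these counts. Cobl, a cytoskeletal gene beside Grb10, had 16.7 ± 12.2 CPM in EIC against 66.2 ± 37.5 CPM in 16IC (SD, n = 3, edgeR adjusted p = 0.194). The nearest tested genes beside H19 (Mrpl23, R74862), Mest (Cep41, Lncpint), Plagl1 (Sf3b5, Ltv1) and Grb10 (Fignl1) had log2 fold changes between -0.30 and 0.76, with edgeR adjusted p of 0.450 to 0.878.

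Many genes that set or keep imprints were expressed in both groups, while Dnmt3l (mean of 0.116 CPM in EIC, 0.0402 in 16IC) and Tet1 (0.0190 and 0.769 CPM) were at or near 0. The expressed genes include the maintenance methyltransferase Dnmt1, at 246 ± 54.0 CPM in EIC against 236 ± 94.2 CPM in 16IC, the corepressor Trim28, at 308 to 381 CPM in EIC against 227 to 422 CPM in 16IC, and the insulator protein Ctcf, at 71.9 ± 15.5 and 74.2 ± 11.5 CPM (SD, n = 3). Of 18 tested genes 4 (22.2%, against 22.7% of all tested genes) had an edgeR p below 0.05 before adjustment. EdgeR and limma-voom called 0 of the 18, and DESeq2 called 2, against 2098 of all 13698 tested genes. The smallest p belonged to the de novo methyltransferase Dnmt3a, with 21.7 ± 3.44 CPM in EIC against 50.8 ± 18.4 CPM in 16IC (SD, n = 3, edgeR adjusted p = 0.103). The demethylating enzyme Tet3 followed, with 55.4 ± 6.18 and 88.1 ± 14.9 CPM (SD, n = 3, edgeR adjusted p = 0.117). Both lay higher in every 16IC line than in any EIC line. DESeq2 called both, as did edgeR without 16IC 3.

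Several of the genes act on IGF signalling, in which Igf2 is the ligand, Igf2r the clearing receptor and Grb10 a brake. Of 14 tested genes of the pathway 5 (35.7%, against 22.7% of all tested genes) had an edgeR p below 0.05 before adjustment. EdgeR called 0 of the 14, limma-voom 1 and DESeq2 4, against 335, 287 and 2098 of all 13698 tested genes. Their median log2 fold change was 0.29, with 9 positive and 5 negative. Igfbp4, which encodes an IGF-binding protein, had 843, 535 and 1239 CPM in EIC against 2.35, 26.4 and 37.3 CPM in 16IC (log2 fold change -5.31, SE 1.04, edgeR adjusted p = 0.0590). Its groups were far apart, and limma-voom called it (adjusted p = 0.0438). The insulin receptor gene Insr had 73.1 ± 6.93 CPM in EIC against 152 ± 34.1 CPM in 16IC (SD, n = 3, edgeR adjusted p = 0.0590). Igf2r, itself maternally expressed, had 577 ± 311 and 405 ± 88.6 CPM, and Igf1r had 155 ± 42.2 and 165 ± 44.2 CPM (SD, n = 3), with overlapping groups for both.

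Of 16 other sarcoglycan and dystrophin-complex genes tested, edgeR called 1, Sgcb, which was higher in 16IC, and 0 lower, against 1.25% and 1.20% of all tested genes. Limma-voom and DESeq2 called 2 and 4, all higher, against 142 and 1133 of all 13698 tested genes called higher. EdgeR without 16IC 3 called 3 higher and 1 lower, against 941 and 972 of all 14262 genes tested there. Sgcb encodes beta-sarcoglycan and had 25.6, 35.1 and 29.9 CPM in EIC against 98.2, 134 and 83.5 CPM in 16IC (log2 fold change 1.80, SE 0.24, edgeR adjusted p = 0.0369). Its call ended under the same 5 changes as that of Slc22a18. Its smallest adjusted p over the alternatives was 3.51e-08 (DESeq2) and its largest 0.161 (without 16IC 1). Sspn, which encodes sarcospan, had 12.4 ± 3.81 CPM in EIC against 34.9 ± 1.99 CPM in 16IC (SD, n = 3, edgeR adjusted p = 0.0540). The median log2 fold change of the list was 0.38, and 13 of the 16 values were positive, against 6807 of all 13698 tested genes. Every 16IC line lay above every EIC line for 5 of the 16 and below for 1, against 17.2% and 14.2% of all tested genes. The 1 below was Sntb2, with 144 ± 19.7 CPM in EIC against 101 ± 4.70 CPM in 16IC (SD, n = 3). The muscle sarcoglycan genes Sgca and Sgcd were at most 0.542 and 0.285 CPM in any line.

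**Figure D5:**
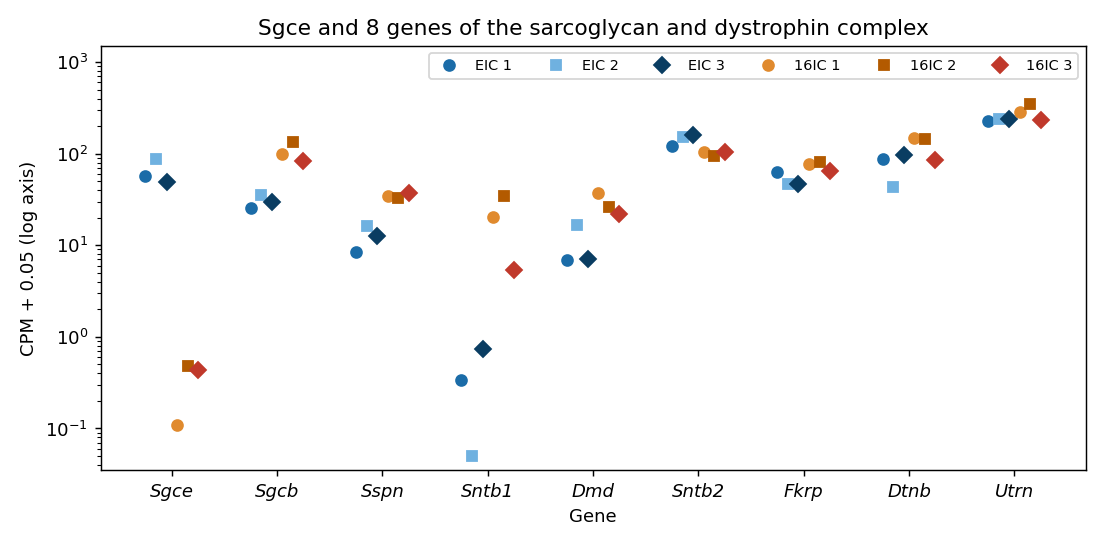
Level (CPM plus 0.05, log axis) of Sgce and of the 8 tested genes of the sarcoglycan and dystrophin list with the smallest p, with 1 point per line, blue for EIC and orange to red for 16IC. Sgce and Sntb2 are lower in every 16IC line, whereas Sgcb and Sspn are higher in every 16IC line.

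Gag-like genes share their retrotransposon origin with Peg10. Of 7 tested, 0 had an edgeR p below 0.05 before adjustment, against 22.7% of all tested genes. EdgeR, limma-voom and DESeq2 called 0 of the 7, against 335, 287 and 2098 of all 13698 tested genes. Arc, the neuronal capsid-forming member, had 16.4, 18.3 and 12.6 CPM in EIC against 0.301, 0.673 and 10.4 CPM in 16IC (edgeR adjusted p = 0.375). The X-linked Rtl5 had 2.68, 4.09 and 5.91 CPM in EIC against 0, 0.0612 and 2.79 CPM in 16IC (edgeR adjusted p = 0.454). For both, 16IC 3 was far above the other 16IC lines, and edgeR called both without it (adjusted p = 0.00858 and 0.0164). In that setting edgeR called 1913 of all 14262 genes tested.

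Likeness of pattern was measured as the root mean square difference, over the 6 lines, between centred log2 profiles of CPM plus 0.5. Among 10619 tested genes with a mean of at least 5 CPM in the higher group, the nearest to Sgce were the sulfotransferase gene Chst1 (0.44), the water channel gene Aqp1 (0.55) and the kinase gene Camk1d (0.56). Nearest to Peg10 were the luminal keratin gene Krt19 (0.69), the oxidase subunit gene Cyba (1.05) and the calcium sensor gene Ncs1 (1.11). Krt19 had 7.70, 198 and 10.1 CPM in EIC 1, 2 and 3 and at most 0.649 CPM in 16IC. Peg10 and Sgce were 1.86 apart. The genes named above were picked for the smallest differences, so setting that value against theirs says nothing about the pair. H19, at most 1.17 CPM, gave a nearly flat profile on this scale, and its nearest genes Abtb1, P2rx4 and Serinc3 (0.18 each) say little.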

How the data were processed

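RNA of 6 lines, 3 per group, was sequenced from libraries made with the NEBNext Ultra II kit, per the labels' protocols. The deposited table gives the authors' read counts per gene as whole numbers, with coordinates and gene length. The submitters' processing notes name GRCm38 and mm10 as builds and list HTSeq, STAR, Trimmomatic, limma and edgeR, without roles, settings or strandedness. Replicate numbers follow the order of the samples and pair no lines. The deposited positions of the 8 genes equalled those of GENCODE M21.

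The counts were filtered with filterByExpr (minimum count 10), scaled with TMM factors and fitted across all genes with edgeR 4.0.16 (quasi-likelihood, R 4.3.3), with Benjamini-Hochberg adjustment and a threshold of 0.05. SE is the fitted log2 fold change over the root of its F statistic. The code was tested on simulated data. Alternatives were DESeq2 size factors, upper-quartile factors, 2 other filters on low counts, the robust fit, limma-voom (limma 3.58.1), DESeq2 1.42.0, each line left out, and 16IC 1 and 16IC 2 averaged. Those 2 lines differed by more than sampling noise (mean chi-square of 20.3 per gene, against 54.1 to 300 for the other pairs).

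The members, the 7 gene lists and the marker lists were chosen with earlier results of these data known. Named from each list were the genes called, up to 6, or else the 2 with the smallest p, and from the neighbours also the nearest tested gene on either side. Genes named beyond that (such as Krt8, Col1a2, Pon3, Phlda2, Kcnq1ot1, Rtl1, Dnmt1, Trim28, Ctcf, Igf2r, Igf1r, Cdkn1a and Cdkn1b) were chosen for their known role or after their values were seen. Of the kinase inhibitors, 5 were tested. Before adjustment 2 (40%, against 22.7% of all tested genes) had an edgeR p below 0.05 (Cdkn2c and Cdkn2d, adjusted p = 0.0658 and 0.147). EdgeR and limma-voom called 0 of the 5, and DESeq2 called 2, against 2098 of all 13698 tested genes. Overlapping genes and unstated strandedness limit Mest and H19.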

Additional observations from a re-analysis of the deposited data

How the results depend on the processing

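The 4 fitted members kept the sign of their log2 fold change under all 14 alternatives. Sgce ranged from -8.15 to -7.28, Peg10 from -10.35 to -3.58, Peg3 from -4.76 to -1.71 and Mest from 0.27 to 1.24. The number of genes called over the whole table was 335 in the main fit, 223 with no filter on low counts, 2098 with DESeq2, 0 with 16IC 1 and 16IC 2 averaged, and 0 to 1913 with a line left out. It was 0 without EIC 1, EIC 3 or 16IC 2, 5 without 16IC 1, 282 without EIC 2 and 1913 without 16IC 3. DESeq2 called 2 paternally and 3 maternally expressed genes, 2 genes of imprint maintenance, 4 of the IGF list, 4 of the sarcoglycan list, 2 kinase inhibitors and 10 of 55 neighbours. Over all genes it called 2098 of 13698, and edgeR without 16IC 3 called 1913 of 14262. With upper-quartile factors and with limma-voom the IGF list had 1 call and the sarcoglycan list 2. With 16IC 1 and 16IC 2 averaged the maternally expressed genes, the sarcoglycan list and the neighbours had 0 calls, where fewer samples enter. With a line left out the calls ran from 0 to 2 (paternal), 0 to 5 (maternal), 0 to 5 (imprint maintenance), 0 to 3 (IGF), 0 to 4 (sarcoglycan), 0 to 2 (Gag), 0 to 1 (kinase inhibitors) and 0 to 11 (neighbours), highest in each case without 16IC 3. The cause of these shifts was not tested. No paired analysis was possible because the labels give no replicate numbers shared between the groups. At these depths a gene with 0 counts may have had up to 0.195 CPM.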

Other observations

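Several imprinted genes did not pass the filter on low counts, and their values are given without a test. Kcnq1, the potassium channel gene of the domain that holds Cdkn1c and Slc22a18, had 56 and 165 counts in 16IC 1 and 16IC 2, 2 in 16IC 3, and 2, 0 and 3 in EIC 1, 2 and 3. Its pattern was thus that of Phlda2 and Plagl1, with 16IC 3 beside the EIC lines. Peg12, a paternally expressed gene of the Prader-Willi domain, had 21, 0 and 10 counts in EIC and 0 in the 16IC lines, at least 9.95-fold lower taking 3 counts over the 16IC lines as the floor. This bound was 4.93 without EIC 1 and 6.53 to 6.78 without a 16IC line, and EIC 2 was at 0 like the 16IC lines. Like Rtl1, Peg12 was lowest in EIC 2 among the EIC lines. Usp29, a deubiquitinase gene beside Peg3, had 3, 0 and 4 counts in EIC and 0 in 16IC. Rasgrf1, an exchange factor gene, had 14 counts in EIC 2 and 28 in 16IC 3, and 0 to 4 in each of the other lines. Asb4, a placental gene on the far side of the Peg10 domain, had 9, 5 and 16 counts in 16IC and 0, 2 and 0 in EIC, the reverse of Peg10. The noncoding RNA Rian of the Dlk1 domain had 3, 0 and 3 counts in EIC and 0 in 16IC.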
